A study of Mus musculus with 3 samples.

Results

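Gene expression in freshly isolated muscle stem cells (MuSC) was set against that of MuSC kept for 3 days in culture without oncostatin M (OSM). This comparison uses 2 of the 3 arrays, 1 for each condition, identified by their sample titles. The comparison, the gene lists and the named genes were chosen with earlier results of these data known. Fresh MuSC came from wildtype C57BL/6 mice 8 weeks of age and were not cultured. MuSC −OSM came from the same genotype, strain and age and were kept for 3 days in medium with 10% FBS. The remaining array, MuSC +OSM, had 100 ng/mL OSM in that medium for the same time, and its signals are given beside some genes without being compared. All cells had been sorted by FACS to more than 95% CD34+ α7 integrin+. By the methods, the tibialis anterior and gastrocnemius muscles were digested with collagenase II and dispase, and cells positive for CD45, CD11b, CD31 or Sca1 were gated out, so fresh MuSC had passed digestion, staining and sorting before lysis. The sources used here do not say how many mice gave each sample. The methods give a different serum content from the labels for standard MuSC culture, and the labels are followed here.

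MuSC, also called satellite cells, lie between the muscle fiber and its basal lamina and are quiescent in resting adult muscle. After injury or on plating they activate, switch from Pax7 and Myf5 to Myod1 and Myog, divide, and then leave the cell cycle to differentiate and fuse into multinucleate fibers. Quiescent cells are small, with little cytoplasm and few mitochondria, and Notch signaling and contact with laminin and collagen of the niche help to keep them undivided.

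Each array gave 1 MAS5 signal for each of 45037 probe sets once controls were left out. Signals below 40, the median of all these signals on the 3 arrays and called the floor here, were raised to it, and each gene was represented by the probe set with the highest mean over the arrays. Genes above the floor in fresh MuSC, in MuSC −OSM or in both are called measured. Where the lower of the signals was under the floor, the fold is a lower bound and is written "at least". Genes called within 2-fold are so after signals were raised to the floor. With 1 array a side there is no replicate, no test was possible, and the differences below describe these arrays. The 3′ to 5′ ratio of the β-actin control, which is higher where RNA is more degraded, was 2.35 in fresh MuSC and 1.40 in MuSC −OSM, and that of Gapdh was 1.36 and 1.14. Their part in the results below was not tested. The arrays measure bulk RNA, in which fewer cells of a type and less RNA per cell cannot be told apart, and levels of different genes are not compared since probe sets differ in affinity.

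Of 18193 genes on the array, 12755 were measured, and 2606 of these (20.4%) had a signal in fresh MuSC at least 2-fold that in MuSC −OSM. A further 1917 (15%) were at least 2-fold lower, which makes 35.5% in either direction, and 8232 lay within 2-fold. The median log2 ratio of all measured genes was 0.14. Scaling moved this center. The median was -0.003 when arrays were centered on their medians and -0.10 after quantile normalization, and of the genes past 2-fold 57.6% were higher in fresh MuSC as deposited, 48.5% after centering and 46.6% after quantile normalization. Large ratios were more frequent on the fresh side, where 351 genes were at least 8-fold higher against 253 lower, and 53 were at least 32-fold higher against 19 lower. The MuSC −OSM signal was under the floor for 752 (28.9%) of the higher genes, so that their folds are lower bounds, and the fresh signal was under it for 256 (13.4%) of the lower genes. Other probe sets of the same genes, where above the floor, went the same way in 2119 of 2294 cases (92.4%) for the higher genes and in 1448 of 1790 (80.9%) for the lower ones. Fewer of them reached 2-fold in that direction, 1238 (54.0%) for the higher genes and 860 (48.0%) for the lower ones.

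**Figure D1:**
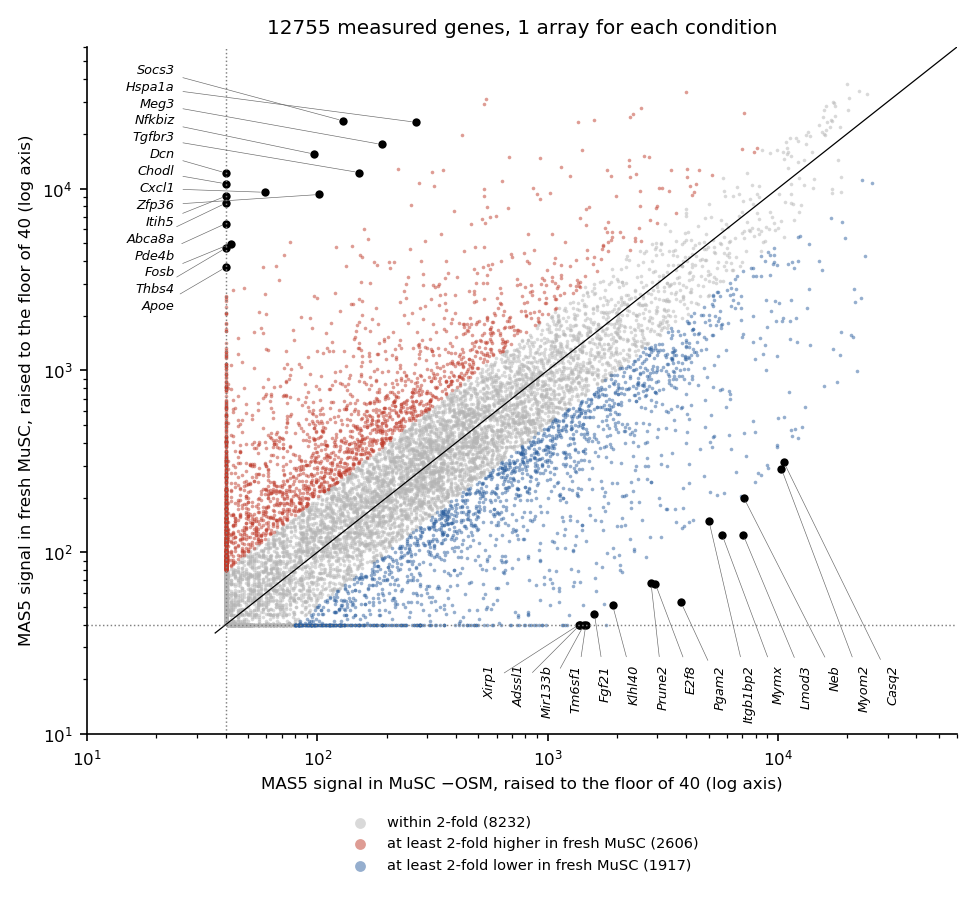
MAS5 signal of the 12755 measured genes in MuSC −OSM (horizontal log axis) and fresh MuSC (vertical log axis), both raised to the floor of 40 (dotted lines), with the diagonal marking equal signals. Red points are at least 2-fold higher in fresh MuSC, blue points at least 2-fold lower and gray points within 2-fold, and black points with names are the 15 highest and 15 lowest ratios among genes whose probe sets agree in direction, from Dcn at 12179 in fresh MuSC and under the floor in MuSC −OSM to Pgam2 at 53 and 3799.

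The genes furthest above the diagonal joined matrix and membrane proteins with stress response genes. Chodl, which encodes the membrane lectin chondrolectin, had a signal of 10617 in fresh MuSC and 28 in MuSC −OSM, at least 265-fold higher. Itih5, a member of the inter-α-trypsin inhibitor family of hyaluronan-binding proteins, had 9074 and 25 in this order, at least 227-fold higher. Pde4b, a phosphodiesterase that breaks down cyclic AMP, had 6416 and 3, and 2 other probe sets of the gene went the same way. Signals of Tgfbr3, the TGF-β coreceptor betaglycan, were 12238 and 152, a difference of 80.5-fold, and those of the transporter gene Abca8a were 8306 and 40. Apoe, the lipid carrier apolipoprotein E, had 3689 and 27. In MuSC +OSM these genes had signals of 50, 36, 108, 384, 111 and 55, in the order named. At the other end stood genes of differentiating muscle. Pgam2, the muscle form of the glycolytic enzyme phosphoglycerate mutase, was 71.7-fold lower in fresh MuSC, the lowest ratio of all measured genes, and Itgb1bp2, which encodes the muscle integrin-binding protein melusin, had 148 in fresh MuSC and 5025 in MuSC −OSM. Prune2 and Tm6sf1 were at 68 and 38 in fresh MuSC, the second under the floor, and at 2812 and 1466 in MuSC −OSM.

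**Figure D2:**
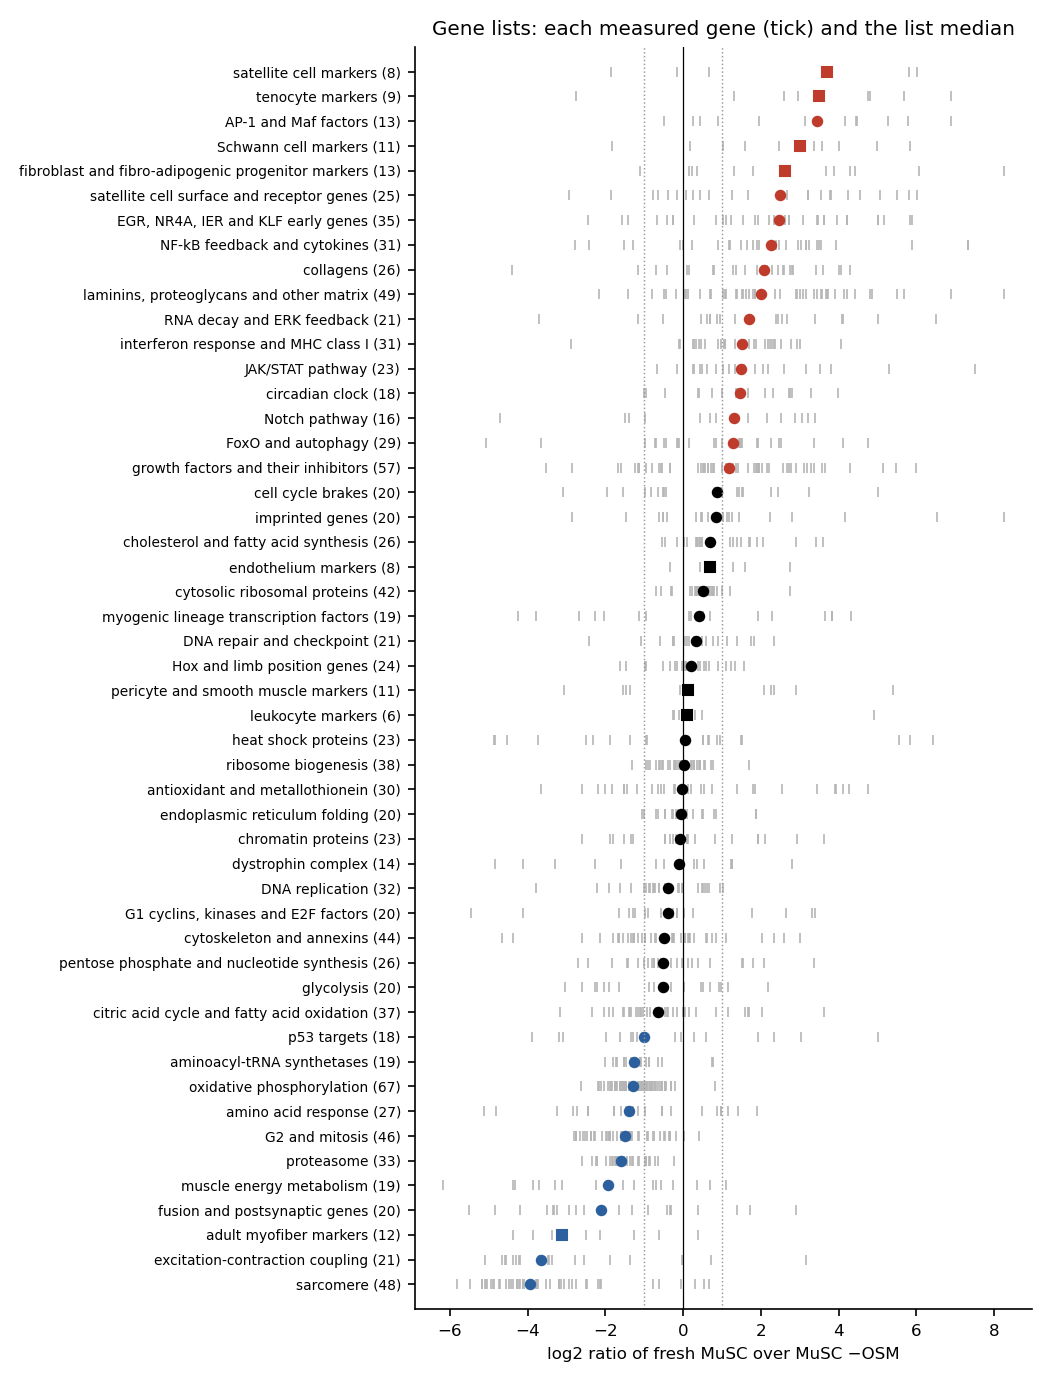
Log2 ratio of fresh MuSC over MuSC −OSM for the gene lists with at least 6 measured genes, with the number measured in parentheses. Gray ticks are genes, circles the medians of program lists and squares those of cell type marker lists, colored where the median lies past 2-fold (dotted lines). Sarcomere genes lie lowest, with a median of -3.93, and among program lists AP-1 and Maf factors lie highest, with 3.44.

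Markers of satellite cells were read first. The 8 used include the sorting antigens Cd34 and Itga7, and both arrays are of MuSC, so their ratios do not check the label. Pax7, the transcription factor that defines these cells, had 4006 in fresh MuSC and 282 in MuSC −OSM, and 5 of 8 satellite cell markers were higher there by 2-fold or more. The sorting antigens differed from each other. Cd34 was at 2222 in fresh MuSC and 34 in MuSC −OSM, under the floor, whereas Itga7, which encodes the α7 integrin chain, was at 499 and 1808, 3.62-fold lower in fresh MuSC. M-cadherin (Cdh15) at 898 and 569 and the chemokine receptor gene Cxcr4 at 559 and 629 lay within 2-fold. Of the antigens gated out, Ptprc (CD45), Itgam (CD11b) and Pecam1 (CD31) were under the floor on all 3 arrays, with signals in fresh MuSC of 1, 23 and 4. Sca1 was not analysed here.

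Markers of several other cell types had higher signals in fresh MuSC. Tenocyte markers were at least 2-fold higher in 8 of 9 cases, and their summed signal was 14367 in fresh MuSC and 783 in MuSC −OSM. Tnmd, the tendon membrane protein tenomodulin, was at 2062 and 33, whereas Scx, the transcription factor of tendon progenitors, went the other way at 48 and 327. Schwann cell markers were higher in 9 of 11 measured cases, with sums of 16069 and 3643. Mbp, a protein of myelin, was at 3747 and 66, with 6 of its 7 other probe sets going the same way, Pmp22 at 8162 and 256, and the glial factor gene Sox10 at 221 and 11, while the neuregulin receptor gene Erbb3 was lower at 797 and 2847. Fibroblast and fibro-adipogenic progenitor markers were higher in 9 of 13, with sums of 32769 and 2483, and Pdgfra, the receptor that defines these progenitors, was at 140 and 17. Such progenitors carry Sca1, one of the antigens gated out, whose gene was not analysed here. How far sorting removed them was not tested. Among pericyte and smooth muscle markers 5 of 11 were higher and 4 lower, with Rgs5 at 1687 and 35 and the smooth muscle myosin gene Myh11 at 301 and 2. Endothelial signals were small, with 8 of 14 markers measured, sums of 897 and 318, and Cdh5 (VE-cadherin) at 268 and 6. The endothelial markers Pecam1, Vwf and Flt1 were under the floor on both arrays. Leukocyte markers were measured in 6 of 20 cases, with Ptprc, Itgam and Cd74 under the floor. Lyz2 (lysozyme) was at 1204 in fresh MuSC and 13 in MuSC −OSM, while the others measured, such as Laptm5 at 118 and 85, lay within 2-fold. Hemoglobin and other erythroid genes were measured in 1 of 5 cases, Hba-a2 at 61 and 45. Of 7 adipocyte markers 3 were measured, with sums of 621 and 239, and the adipokine gene Adipoq was under the floor. The sums add probe sets that differ in affinity, and genes of high signal carry much of them. In fresh MuSC these include Pmp22 at 8162 in the Schwann cell sum and Dcn at 12179 in the fibroblast sum. Some of these genes, such as Dcn, Pmp22 and Mbp, are also reported in satellite cells or muscle, and the part of other cells in the signals of fresh MuSC was not tested. Genes of adult muscle fibers were not higher in fresh MuSC, where 10 of 12 were at least 2-fold lower, with sums of 11994 and 104305.

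Of 25 surface and receptor genes of satellite cells 15 were higher in fresh MuSC by 2-fold or more and 2 lower, and their median log2 ratio was 2.48 against 0.14 for all measured genes. Calcr, the calcitonin receptor gene, was at 2562 in fresh MuSC and 35 in MuSC −OSM. Ptprz1, a receptor phosphatase, was at 1821 and 35, and Tenm4, a teneurin cell adhesion protein, at 1108 and 47. The receptors for epidermal growth factor (Egfr, 1498 and 45), angiopoietin (Tek, 791 and 42) and leukemia inhibitory factor (Lifr, 810 and 58) belonged to the same side, for Egfr with 3 of 4 other probe sets going the same way. The FGF receptor genes Fgfr4, at 3449 and 370, and Fgfr1, at 3592 and 564, were 9.32-fold and 6.37-fold higher. Heparan sulfate carriers did not move together, since Sdc4 (syndecan-4) was 11.7-fold higher, with 10047 and 862, and Sdc3 was at 227 and 295, within 2-fold. Met, the receptor of hepatocyte growth factor, had 861 and 718. The genes that were lower in fresh MuSC were Itga7 and Cdh2 (N-cadherin), the latter at 542 and 4121.

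Among myogenic transcription factors 6 of 19 were higher in fresh MuSC and 6 lower, 31.6% each way against 20.4% and 15% of all measured genes. The higher ones were Pax7, Pax3 (216 in fresh MuSC and 57 in MuSC −OSM), Myf5 (7016 and 561), Msc, a repressor of muscle genes also called MyoR (804 and 11), Meox2 (565 and 36) and Sox8 (223 and 46). On the lower side, Myod1 was at 936 and 3820, and Myog (myogenin), which is switched on as myoblasts commit to differentiate, at 1530 and 21248, 13.9-fold lower. Mef2c, a partner of the myogenic factors on muscle promoters, was at 172 and 3294, Mef2a at 1374 and 8838, Six4 at 216 and 1038 and Myf6 at 84 and 183. E-protein genes Tcf3 and Tcf12, which encode the common dimer partners, had log2 ratios of 0.45 and 0.21.

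The Notch pathway, which holds satellite cells in quiescence, had 9 of 16 genes higher and 3 lower, with a median of 1.30. Receptors Notch1, Notch2 and Notch3 were 2.47-fold, 7.38-fold and 9.24-fold higher in fresh MuSC, at 842, 1822 and 2947 there. Their target genes Hes1 (1218 in fresh MuSC and 212 in MuSC −OSM), Hey1 (1225 and 277) and Hey2 (98 and 7) were higher too. The ligands divided, with Jag1 at 1523 and 146 but Dll1 at 311 and 878 and Jag2 at 66 and 173. Hes6, which opposes Hes1 and promotes differentiation, went furthest against the list, at 489 in fresh MuSC and 12729 in MuSC −OSM, 26.0-fold lower.

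**Figure D3:**
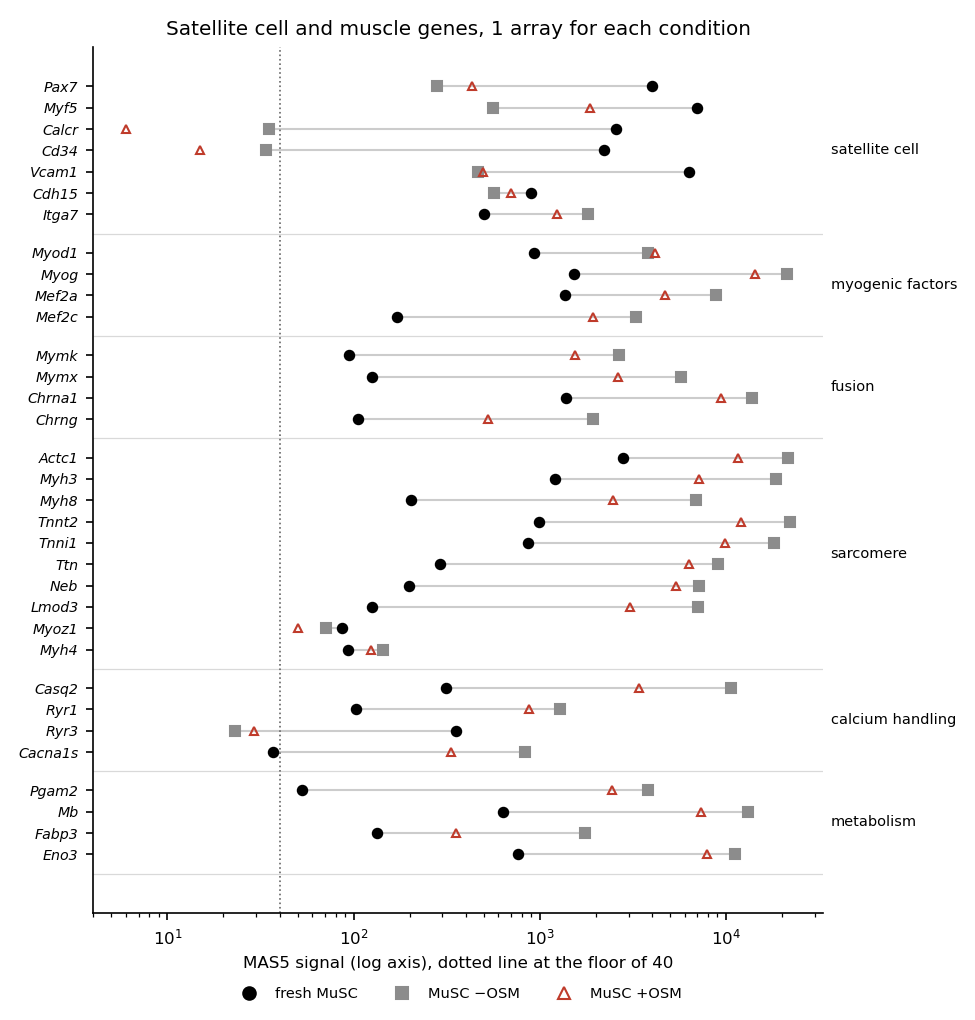
MAS5 signal on a log axis of satellite cell, myogenic and muscle genes, 1 array for each condition, drawn as black circles (fresh MuSC), gray squares (MuSC −OSM) and open red triangles (MuSC +OSM), with a dotted line at the floor of 40. Pax7, Myf5, Calcr, Cd34 and Vcam1 lie to the right in fresh MuSC, myogenic factors and most muscle genes to the left, Ryr3 lies to the right, and Myoz1 and Myh4 lie within 2-fold.

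Muscle structural genes were lower in fresh MuSC almost throughout. Of 48 sarcomere genes measured, 42 were at least 2-fold lower in fresh MuSC and 0 higher, with a median log2 ratio of -3.93. The 7 troponin genes ranged from -4.90 to -4.19. Tnnt2, cardiac troponin T, which embryonic skeletal muscle also makes, was at 989 in fresh MuSC and 22093 in MuSC −OSM, and Tnni1, slow troponin I, at 867 and 18097. The myosin heavy chains of developing muscle were among the lower ones, with Myh3 at 1214 and 18555 and Myh8 at 204 and 6912, and so were most of those of adult fibers, with slow Myh7 at 437 and 11568, Myh1 at 2383 and 21628 and Myh2 at 6 and 176. Myh4 of adult fast fibers, at 93 and 143, was the heavy chain within 2-fold. Heavy chain transcripts are alike in sequence, so reads of one by the probes of another cannot be set aside. Titin (Ttn, 292 and 9041) and nebulin (Neb, 199 and 7120), the giant proteins that span the sarcomere, were 31.0-fold and 35.8-fold lower. Lmod3, which starts thin filaments, was at 125 and 7068, the kelch protein gene Klhl40, which stabilizes it, at 51 and 1917, the M-band gene Myom2 at 287 and 10373, and the actin-binding Xirp1 at 11 and 1370. The 6 within 2-fold after raising to the floor were Mybpc2, Tmod4, Myoz1, Myl3, Myh4 and Mylk2. For Mybpc2 (63 and 13) and Tmod4 (58 and 2) the MuSC −OSM signal was under the floor, so these folds are lower bounds. With the floor at 20, 2 sarcomere genes were at least 2-fold higher. Fresh MuSC were not without muscle RNA, since Acta1 (skeletal actin) was at 4243 and Myog at 1530.

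Genes of calcium release and reuptake in the fiber went along, with 18 of 21 lower in fresh MuSC, 1 higher and a median of -3.64. Ryr1, the calcium release channel of the sarcoplasmic reticulum, was at 103 in fresh MuSC and 1287 in MuSC −OSM, its voltage sensor Cacna1s at 37 and 834, and the triad protein gene Trdn at 101 and 2372. Ryr3, another isoform of the channel, was the one that went the other way, at 355 and 23. In the fusion and postsynaptic list 12 of 20 were lower and 3 higher. The fusion proteins myomaker (Mymk, 94 and 2673) and myomixer (Mymx, 125 and 5726) were 28.4-fold and 45.8-fold lower in fresh MuSC. Chrng, the γ subunit of the fetal acetylcholine receptor, was 18.3-fold lower, with 105 and 1921, and its α subunit gene Chrna1 9.94-fold lower, whereas the β subunit gene Chrnb1 had 2160 and 1647, within 2-fold. The higher genes were the receptors Boc and Neo1, at 335 and 724 in fresh MuSC, and Agrn (agrin). The dystrophin complex had no common direction, with 4 of 14 (28.6%) higher and 5 (35.7%) lower, against 20.4% and 15% of all measured genes. Dmd itself was 2.34-fold higher, at 1675 and 715, and Sgce (ε-sarcoglycan) 6.91-fold higher, whereas the muscle-specific Sgca (α-sarcoglycan) was 4.78-fold lower, at 316 and 1509, and Cav3 (caveolin-3) 28.5-fold lower, at 150 and 4273.

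The annotation assigns 1 probe set among the lowest to Mir133b, the locus of a muscle microRNA, with 33 in fresh MuSC, under the floor, and 1441 in MuSC −OSM. The labeling primes on poly(A), so that this probe set reads a longer transcript and not the mature microRNA. The mature strand is shown from RefSeq (GRCm38.p6, chr1:20682834-20682855, plus strand) because it is what the locus is known for, with its seed, bases 2 to 8, in capitals.
mmu-miR-133b-3p: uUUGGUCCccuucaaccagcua

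Promoters were read from RefSeq starts on GRCm38.p6, from 250 bases before to 50 after each start, to show what letters the members of these groups share, and both strands were searched. A match describes the letters and is not a measured binding site. The E-box CAGCTG, a form that MyoD and myogenin bind, was in 16 of 43 sarcomere promoters (37.2%) and in 7 of 12 promoters (58.3%) of the calcium genes, against 5355 of 32851 promoters in all (16.3%). The CArG box, bound by serum response factor, was in 7 of the 43 sarcomere promoters (16.3%), against 535 in all (1.63%). The promoter of Myh4, a gene within 2-fold, also held the E-box. Windows of 30 bases on the gene's strand are shown for genes with high signals in MuSC −OSM, with the E-box in capitals.
Tnni1: gggaaggaggggCAGCTGgaggggcagcgg
Tnnt2: tctcaagagggaCAGCTGgtttatgttaca
Mybph: gacctgaccccaCAGCTGggaatggtttgc
Klhl41: ttcaatctcaaaCAGCTGaacagcagcact
Tnni1 lies at chr1:135799341-135799370, Tnnt2 at chr1:135836099-135836128, Mybph at chr1:134193357-134193386 and Klhl41 at chr2:69669981-69670010, all on the plus strand. In the same order these genes were 20.9-fold, 22.3-fold, 19.2-fold and 32.9-fold lower in fresh MuSC.

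Genes switched on within minutes of a stimulus were mostly higher in fresh MuSC. In the list of AP-1 and Maf factors 9 of 13 genes were at least 2-fold higher and 0 lower, with a median of 3.44. Fos was at 29074 in fresh MuSC and 527 in MuSC −OSM, Jun at 27697 and 2547, and the stress factor Atf3 at 10687 and 277. Fosl1, Maf, Batf and Mafg lay within 2-fold. For Batf (48 and 8) the MuSC −OSM signal was under the floor, so its fold is a lower bound. Of 35 EGR, NR4A, IER, KLF and related genes 26 were higher and 3 lower. Egr1 was at 33947 and 4005, the orphan receptor gene Nr4a1 at 12806 and 224, Ier2 at 12634 and 350, and Klf4 at 9918 and 530. The 3 that went the other way were Klf5 (333 and 1801), Klf3 (626 and 1688, with 4 of 5 other probe sets going the same way) and Gadd45g (1213 and 3612). Messenger RNA decay factors that end such responses belonged to the higher side, with Zfp36 (tristetraprolin) at 9272 and 102, Zfp36l2 at 10952 and 635, and Btg2, an antiproliferative gene that recruits the deadenylase, at 10264 and 320. Over the list of RNA decay and ERK feedback genes 12 of 21 were higher and 2 lower. Errfi1, an inhibitor of the EGF receptor, was 17.0-fold higher and the phosphatase gene Dusp1 5.80-fold higher, and the lower genes were Dusp14, at 73 and 961, and Dusp10, at 308 and 684.

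**Figure D4:**
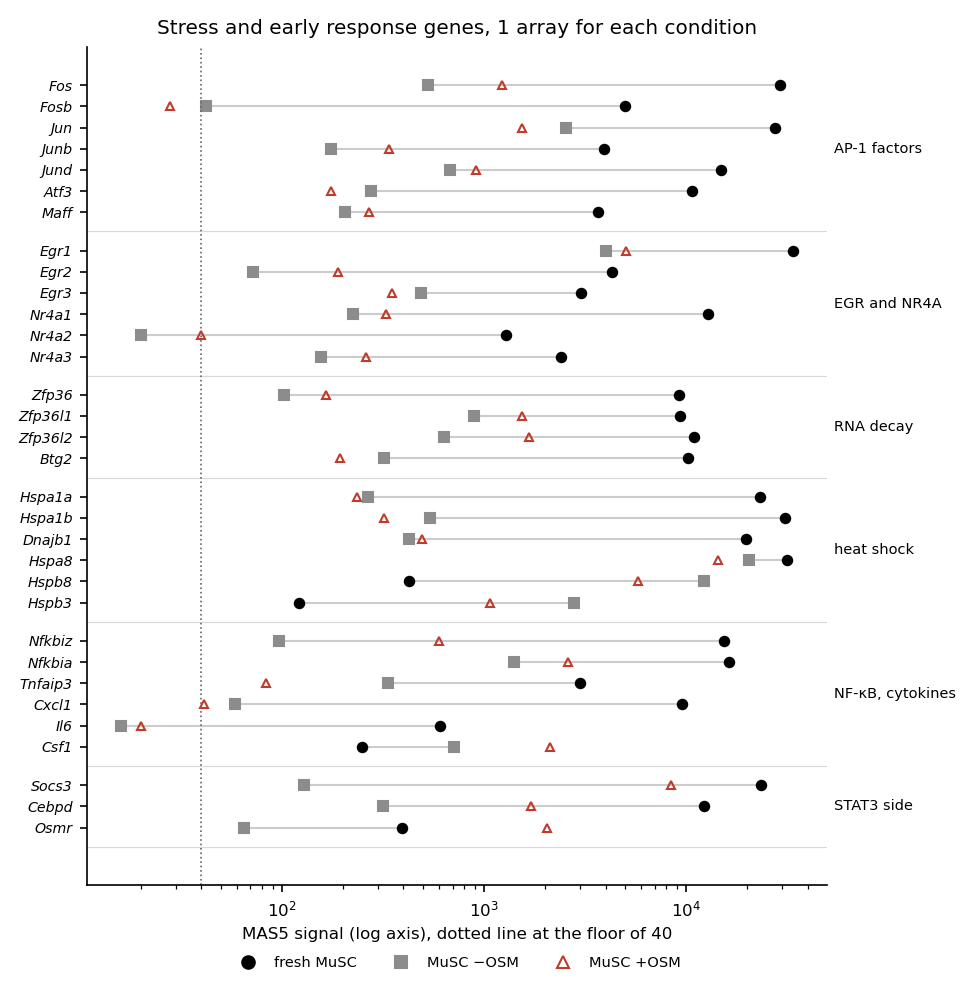
MAS5 signal on a log axis of early response, RNA decay, heat shock, NF-κB and STAT3-related genes, drawn as black circles (fresh MuSC), gray squares (MuSC −OSM) and open red triangles (MuSC +OSM), with a dotted line at the floor of 40, 1 array each. Fresh MuSC lie furthest right for most, while the small heat shock genes Hspb8 and Hspb3 and the growth factor gene Csf1 lie lowest in fresh MuSC.

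The promoters of 28 of the EGR, NR4A, IER and KLF group, 40 starts in all, held a CArG box in 5 cases (12.5%) against 1.63% of all promoters, and TGACGTCA, the cyclic AMP response element, in 3 (7.50%) against 588 (1.79%). The 3 were those of Btg2, Ppp1r15a and Plk2, of which Plk2 lay within 2-fold, at 3070 in fresh MuSC and 2534 in MuSC −OSM. Of 13 promoters of AP-1 and Maf genes 0 held a CArG box and 1, that of Maff, held TGACGTCA (7.69%). The 5 CArG cases are starts and not separate genes. Srf is among them, at 640 in fresh MuSC and 316 in MuSC −OSM, and its other probe set did not go the same way. For Egr2, at 4291 in fresh MuSC and 72 in MuSC −OSM, both starts have a CArG box at -72 to -63, counted with the start as 0. These windows and those of Btg2, Ppp1r15a and the AP-1 partner Maff are shown with the box or element in capitals.
Egr2, first start: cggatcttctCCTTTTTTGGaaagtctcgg
Egr2, second start: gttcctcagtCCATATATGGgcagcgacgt
Btg2: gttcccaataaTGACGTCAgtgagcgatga
Ppp1r15a: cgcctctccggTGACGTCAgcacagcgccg
Maff: ggctggggcggTGACGTCActgcatgactg
The Egr2 windows lie at chr10:67537484-67537513 and chr10:67537787-67537816 and that of Maff at chr15:79347480-79347509, on the plus strand, and those of Btg2 and Ppp1r15a at chr1:134079303-134079332 and chr7:45526262-45526291, on the minus strand. Ppp1r15a, the phosphatase subunit that restores translation after stress, was at 3970 and 362, and Maff at 3656 and 206.

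Heat shock proteins divided by family. Inducible Hsp70 was high in fresh MuSC, with Hspa1a at 23145 and 267 in MuSC −OSM and its near-identical copy Hspa1b, which the probes may not tell apart, at 31030 and 541. The co-chaperone gene Dnajb1 was 46.5-fold higher, at 19768 and 425. Constitutive Hspa8 was at 31630 and 20458, within 2-fold. The small heat shock proteins of muscle were lower in fresh MuSC, with Hspb8 at 427 and 12242, Hspb3 at 121 and 2788, and Hspb2 at 307 and 4097. Over the list of 23 genes, 5 (21.7%) were higher, near the 20.4% of all measured genes, and 8 (34.8%) lower, against 15%. Chaperones of the endoplasmic reticulum mostly lay within 2-fold, 17 of 20, and Hspa5 (BiP), at 26133 and 7147, was one of the 2 higher genes.

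Inflammatory genes were also on the fresh side. Of 31 genes of NF-κB feedback and cytokines 23 were higher and 4 lower, with a median of 2.26. The chemokine gene Cxcl1 was at 9538 in fresh MuSC and 59 in MuSC −OSM, and Nfkbiz, a nuclear regulator of NF-κB, at 15458 and 97. Il6 was at 610 and 16, and Birc3, an inhibitor of apoptosis induced by NF-κB, at 2839 and 48. The inhibitors Nfkbia and Tnfaip3 were 11.6-fold and 8.85-fold higher. On the lower side were Il1b (57 and 306), Csf1 (249 and 715), Ptgs2 (38 and 97) and Tnfaip2 (91 and 625, with 1 of 2 other probe sets going the same way). JAK/STAT pathway genes were higher in 15 of 23 cases and lower in 0, with a median of 1.49. Stat3, which carries the signal of OSM and interleukin-6, was 2.81-fold higher, at 1621 and 576, its shared receptor chain Il6st was at 3115 and 1742, within 2-fold, and Cebpb, a transcription factor of the acute phase, at 13105 and 1144. Socs3, a feedback inhibitor of STAT3, was 183-fold higher in fresh MuSC, and the kinase gene Pim1 8.89-fold higher. Interferon response and MHC class I genes were higher in 20 of 31 cases and lower in 1, with Irf1 at 2112 and 126, B2m, the light chain of MHC class I, at 5414 and 1912, and the membrane protein gene Ifitm3 at 3632 and 481. The lower one was the GTPase gene Gbp6, at 156 and 1151. The median of this list, 1.50, was 0.39 with the floor at the 75th percentile of the signals.

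Matrix genes were mostly higher in fresh MuSC, as were the tenocyte, fibroblast and Schwann cell markers given above. The tenocyte and fibroblast lists share genes with the matrix lists, such as Thbs4 and Dcn, so these are not separate observations. The part of other cells was not tested. Of 26 collagen genes 18 were higher and 2 lower, with a median of 2.09. Fibrillar Col1a2 was at 14778 in fresh MuSC and 925 in MuSC −OSM, and the 3 chains of collagen VI, a niche component of satellite cells, ranged from 2.03 to 3.60 on the log2 scale. Of the 5 collagen IV chains of basement membrane 4 were higher, Col4a1 at 3448 and 493. Col5a2, at 4292 and 9581, and the membrane collagen Col25a1, at 53 and 1121, were the lower ones. Among 49 other matrix genes 37 were higher and 2 lower. All 7 laminin chains measured were at least 2-fold higher, among them Lama2 (2870 and 798), the laminin chain of the muscle basal lamina, although for Lama5 (114 and 27) another probe set went the other way. Fmod (fibromodulin) was at 4308 and 153, Mmp2, a gelatinase, at 1472 and 79, and the protease gene Adamts1 at 5138 and 293. Inhibitors of metalloproteinases divided, with Timp3 13.2-fold higher and Timp1 4.47-fold lower, at 323 and 1445. Fn1 (fibronectin) was 5.57-fold higher, while Tnc (tenascin C), at 229 and 398, and Bgn (biglycan), at 3458 and 3311, lay within 2-fold.

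Growth factors and their inhibitors were higher in 32 of 57 cases (56.1%) and lower in 8 (14%), against 20.4% and 15% of all measured genes. Among the higher ones were the bone morphogenetic proteins Bmp4 at 2622 in fresh MuSC and 59 in MuSC −OSM, Bmp6 at 1407 and 9, and Bmp2 at 797 and 41, together with the BMP-binding Chrdl2 at 3709 and 58. Id3, a target of BMP that blocks myogenic factors, was at 12678 and 3423, whereas Id1 and Id2 had log2 ratios of 0.37 and -0.57, within 2-fold, and Bmpr1a was at 854 and 1916. Fst (follistatin), which binds activin and myostatin, was 11.5-fold lower in fresh MuSC, at 148 and 1707. The IGF-binding proteins Igfbp4, Igfbp5 and Igfbp6 were 9.76-fold, 9.04-fold and 10.4-fold higher, and the growth factor Igf2, which differentiating myoblasts secrete, was 7.23-fold lower, at 789 and 5702.

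Cell cycle genes differed by phase, and the count of lower replication genes varied with scaling. Of 46 genes of G2 and mitosis 33 were at least 2-fold lower in fresh MuSC and 0 higher, with a median of -1.49. Of 32 DNA replication genes 25 lay within 2-fold and 6 (18.8%) were lower, against 15% of all measured genes. Orc1 was higher, at 81 in fresh MuSC and 6 in MuSC −OSM, and the replication median was -0.40. After centering the arrays 9 of the replication genes were lower. After quantile normalization 12 were lower, as were 2389 of 12282 measured genes, and the medians of the mitosis and replication lists were -1.79 and -0.70. Ccna2 (cyclin A2) was at 119 in fresh MuSC and 746 in MuSC −OSM, Cdk1 at 171 and 661, and Top2a, which untangles chromosomes, at 166 and 991. Aurka (Aurora A) was at least 6.97-fold lower, its fresh signal of 9 lying under the floor. Smc4, Bub1b and Kif23 had log2 ratios of 0.42, 0.01 and -0.19. The median of the G2 and mitosis list was -0.91 with the floor at the 75th percentile of the signals and -0.98 when a gene was the median of its probe sets, both within 2-fold. Pcna, the sliding clamp, was at 2990 and 2992, and 1 of 6 MCM helicase subunits, Mcm5, was lower. The ribonucleotide reductase subunits Rrm2, at 441 and 6119, and Rrm1, at 334 and 1248, were 13.9-fold and 3.74-fold lower.

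The letters CCAAT, read by NF-Y, and TTTGAA, a form of the cell cycle homology region through which such genes are repressed outside G2, were frequent in promoters of the G2 and mitosis group. CCAAT was in 33 of 40 promoters (82.5%) against 12289 in all (37.4%), and TTTGAA in 32 (80.0%) against 5878 (17.9%), and copies of these motifs can share at most 1 base. CCAAT was also in 20 of 32 promoters of DNA replication genes (62.5%), in 7 of 12 of the synthetases (58.3%) and in 15 of 26 of the amino acid response (57.7%). Promoters of DNA replication genes held TTTGAA in 4 of 32 (12.5%) and the E2F letters TTTCGCGC in 7 (21.9%), against 106 of all promoters (0.323%). Promoters of genes within 2-fold held TTTGAA too, such as those of Bub1b and Kif23, with log2 ratios of 0.01 and -0.19. TTTGAA is shown in capitals for genes with a copy close before the start, reading TTCAAA where it lies on the other strand.
Cdk1: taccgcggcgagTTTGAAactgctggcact
Cdc20: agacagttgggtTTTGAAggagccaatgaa
Top2a: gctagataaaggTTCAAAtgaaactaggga
Ube2c: ggagggttgcaaTTCAAAcgcgggcggcgg
Cdk1 lies at chr10:69352910-69352939, Cdc20 at chr4:118437344-118437373 and Top2a at chr11:99024195-99024224, all on the minus strand, and Ube2c at chr2:164769888-164769917 on the plus strand. Cdc20, the activator of the anaphase-promoting complex, was at 313 and 781, and Ube2c, its ubiquitin-conjugating enzyme, at 80 and 542.

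Factors that govern entry into the cycle were mixed. Among G1 cyclins, kinases and E2F factors 4 of 20 (20%) were higher in fresh MuSC and 6 (30%) lower, against 20.4% and 15% of all measured genes. Myc was at 4550 in fresh MuSC and 435 in MuSC −OSM, Ccnd1 (cyclin D1) at 1798 and 528, and Ccnd2 at 405 and 65, all higher, together with Mycn. E2f8, an atypical E2F that represses cell cycle genes, was 43.9-fold lower, at 67 and 2939, and Mycl was at 28 and 695. E2f1, E2f2 and E2f3 lay within 2-fold, E2f1 with a fresh signal of 33, under the floor. Cell cycle brakes were higher in 8 of 20 cases (40%) and lower in 3 (15%), against 20.4% and 15% of all measured genes. Cdkn1b (p27), which holds quiescent cells in G1, was 2.59-fold higher, at 874 and 337, and the pocket protein Rbl2 (p130) 2.91-fold higher, whereas Cdkn1a (p21), switched on as myoblasts leave the cycle, was 8.48-fold lower, at 1428 and 12109, and Rb1 3.87-fold lower, at 756 and 2929. Of 21 DNA repair and checkpoint genes 5 were higher and 2 lower, near the share of higher genes over all measured (20.4%), and Wee1, the kinase that holds back entry into mitosis, was 5.05-fold higher, at 525 and 104. Of 18 targets of p53, 9 (50%) were lower and 4 (22.2%) higher, the second near the 20.4% of all measured genes. This list shares Cdkn1a and Btg2 with the brakes. On the lower side were Eda2r at 140 and 2077 and Ccng1 at 566 and 5135. Chromatin genes had 6 of 23 higher and 6 lower, 26.1% each way against 20.4% and 15% of all measured genes. Kdm6b, a demethylase of histone H3, was at 2996 and 242, and Tet2, which oxidizes methylcytosine, at 1630 and 213. Of the Polycomb enzymes, Ezh1 was 3.82-fold higher and Ezh2 had 525 and 629, within 2-fold.

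**Figure D5:**
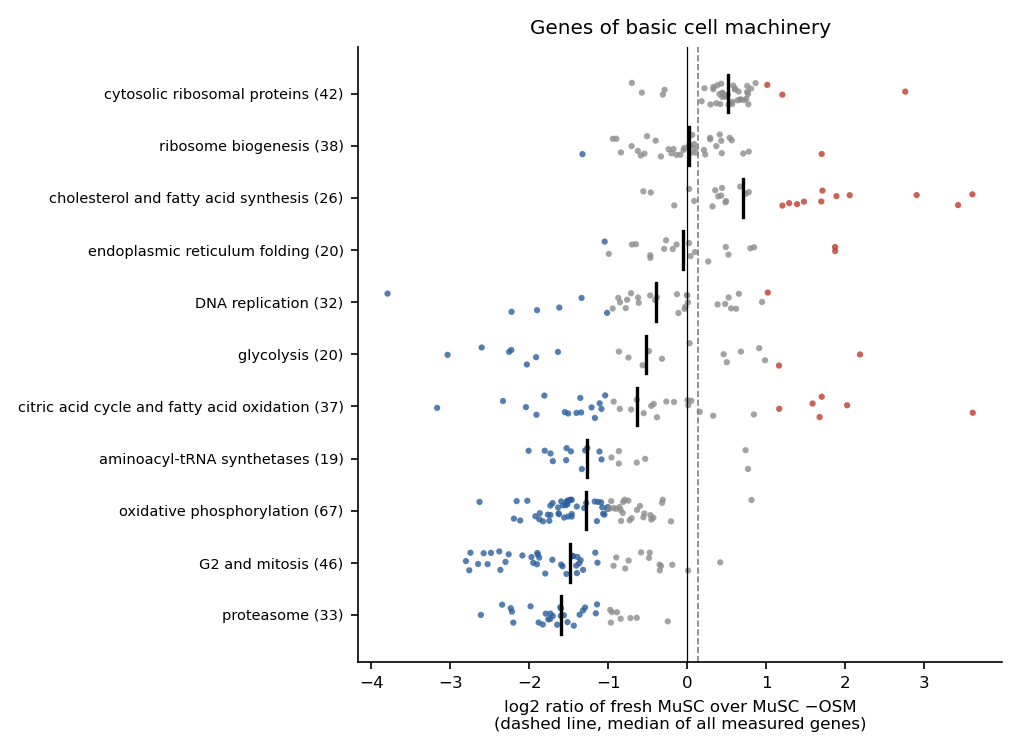
Log2 ratio of fresh MuSC over MuSC −OSM for each measured gene of 11 lists of basic cell machinery, with the number measured in parentheses, red where at least 2-fold higher, blue where at least 2-fold lower and gray within 2-fold. Black bars are medians and the dashed line is the median of all measured genes, 0.14. Proteasome and oxidative phosphorylation genes lie almost entirely below 0, with medians of -1.60 and -1.28, whereas cytosolic ribosomal proteins lie close together at 0.52.

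Genes of energy metabolism differed by pathway. Of 67 genes of oxidative phosphorylation 43 were at least 2-fold lower in fresh MuSC and 0 higher, and 66 had a ratio below 0, with a median of -1.28. By complex the medians were -1.49 over 30 subunits of complex I, -1.17 over 4 of complex II, -1.05 over 8 of complex III, -1.07 over 9 of complex IV and -1.28 over 15 of ATP synthase. Of these 43 genes 29 had another probe set above the floor, and in 8 of the 29 such a set went the other way. Cox5a of cytochrome c oxidase had the lowest ratio, at 1934 in fresh MuSC and 11973 in MuSC −OSM, and cytochrome c (Cycs) was at 3576 and 15498. Cox7c was the gene with a ratio above 0, at 288 and 164. Glycolysis had 7 of 20 (35%) lower and 2 (10%) higher, against 15% and 20.4% of all measured genes. The enzymes Tpi1 (1206 and 9880), Ldha (2197 and 13347) and Pgk1 (2435 and 11410) were lower, whereas Pdk4, which keeps pyruvate out of mitochondria, was 4.55-fold higher, at 2833 and 623, and the glucose transporter gene Slc2a1 2.23-fold higher. Of muscle energy genes 12 of 19 were lower, with myoglobin (Mb) at 632 and 13170 and the muscle enolase Eno3 at 761 and 11151. The citric acid cycle and fatty acid oxidation had 15 of 37 (40.5%) lower and 6 (16.2%) higher. Acadl, an acyl-CoA dehydrogenase, was 8.98-fold lower, while Cpt1a, the gate of fatty acid entry to mitochondria, was 4.06-fold higher, at 853 and 210. In the pentose phosphate and nucleotide list 5 of 26 (19.2%) were higher and 6 (23.1%) lower, against 20.4% and 15% of all measured genes. Transketolase (Tkt) was at 1305 and 311 and the folate enzyme gene Mthfd2 at 208 and 1131.

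Genes that make and degrade proteins did not move together. Proteasome genes were lower in fresh MuSC in 25 of 33 cases and higher in 0, with ratios below 0 for all 33 and a median of -1.60. The catalytic subunit gene Psmb5 was at 622 and 3806 and the ATPase Psmc1 at 458 and 2326, while of the 14 lower genes with another probe set above the floor, 4, among them Psma1 and Psmd7, had a set that went the other way. Cytosolic ribosomal proteins had ratios above 0 in 38 of 42 cases and stayed within 2-fold in 39, with medians of 0.54 for the large and 0.51 for the small subunit, which became 0.35 over all 42 after centering the arrays and 0.14 after quantile normalization. Many of these genes have processed pseudogenes that probes may share. Ribosome biogenesis lay near 0, with 36 of 38 within 2-fold, among them Npm1 (nucleophosmin) at 8738 and 7551 and Ncl (nucleolin) at 6967 and 5151. Aminoacyl-tRNA synthetases, in contrast, were lower in 12 of 19 cases and higher in 0, with Gars at 897 and 3611 and Iars at 1030 and 3599, while Hars and Qars had ratios of 0.77 and 0.74 on the log2 scale.

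The synthetases share a regulator, ATF4, with the genes of the amino acid response, of which 16 of 27 were lower in fresh MuSC and 3 higher. Asns, asparagine synthetase, was at 139 in fresh MuSC and 3926 in MuSC −OSM, 28.2-fold lower. The serine synthesis enzymes Phgdh (505 and 2746), Psat1 (401 and 2653) and Psph (133 and 727) were lower, as was the hormone gene Fgf21 (46 and 1596). Atf4 itself had 6382 and 3249, within 2-fold, and Ddit4 (1867 and 503), Ddit3 (409 and 154) and the glutamine transporter gene Slc1a5 (211 and 95) were the higher ones. The letters TGATGNAA, common to the C/EBP-ATF elements of these genes and searched for after the data were examined, were in 5 of 12 synthetase promoters (41.7%) and 6 of 26 of the amino acid response (23.1%), against 1304 of all promoters (3.97%). Promoters of Slc1a4 and Vldlr, both within 2-fold with log2 ratios of -0.53 and 0.97, held them too. The letters are in capitals here and appear as the reverse complement where they lie on the other strand.
Asns: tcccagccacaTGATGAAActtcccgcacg
Fgf21: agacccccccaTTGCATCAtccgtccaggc
Chac1: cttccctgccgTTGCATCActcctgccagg
Gars: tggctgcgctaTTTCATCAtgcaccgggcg
Asns lies at chr6:7693214-7693243 and Fgf21 at chr7:45615611-45615640, on the minus strand, and Chac1 at chr2:119351038-119351067 and Gars at chr6:55037960-55037989, on the plus strand. Chac1, which degrades glutathione, was at 82 and 583.

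Lipid and stress defense genes divided as well. Of 26 genes of cholesterol and fatty acid synthesis, a list that also holds the exporter Abca1, 11 were higher in fresh MuSC and 0 lower. Hmgcs1 was at 5095 and 1833, Elovl6 at 430 and 37, and Abca1 at 707 and 58. Among antioxidant genes 10 of 30 (33.3%) were higher and 9 (30%) lower, against 20.4% and 15% of all measured genes. The metallothionein genes Mt1 (23876 and 1587) and Mt2 (24597 and 2278), the selenium carrier Selenop (9114 and 527) and the secreted peroxidase Gpx3 (7490 and 391) were higher, whereas heme oxygenase (Hmox1, 116 and 1470), Nqo1 (40 and 242) and the lipid peroxidase Gpx4 (634 and 2914) were lower. FoxO and autophagy genes were higher in 16 of 29 cases and lower in 2. Foxo3, which takes part in satellite cell quiescence, was 4.82-fold higher, at 1480 and 307, and Txnip, an inhibitor of thioredoxin, 26.9-fold higher. The muscle ubiquitin ligase gene Trim63 (MuRF1) was 33.7-fold lower, at 52 and 1752, and the mitophagy receptor gene Bnip3 12.6-fold lower.

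The remaining lists were of clock, imprinted, Hox and cytoskeletal genes. Clock genes were higher in 12 of 18 cases and lower in 1, with Per1 at 1824 in fresh MuSC and 115 in MuSC −OSM, Dbp at 1129 and 170, and Nr1d1 (Rev-erbα) at 392 and 56, while Clock itself was at 619 and 1191. At what time of day the 2 samples were taken was not stated in those sources. Among imprinted genes 10 of 20 were higher and 2 lower. The noncoding RNAs of the Dlk1-Dio3 region were on the higher side, with Meg3 at 17473 and 190, Rian at 1705 and 95 and Mirg at 188 and 5, and Peg3 was 2.18-fold higher, at 9244 and 4246. Hox and limb genes mostly lay within 2-fold, 18 of 24. The cytoskeletal list, which also holds annexins and the lectin gene Lgals3 (galectin-3), had 16 of 44 lower and 5 higher. The intermediate filament gene Nes (nestin), at 173 and 3593, and Lgals3, at 391 and 9896, were both lower. All 7 tubulin genes had ratios below 0 in the probe set used, whereas vimentin (Vim) was at 14389 and 12963. For Ezr (ezrin), at 394 and 49, another probe set went against the higher signal.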

How the data were processed

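The files analysed here hold 1 array of MuSC per condition, although the study describes its OSM comparison as a mean over biological replicates. RNA was prepared with RNeasy, labelled from 20 ng by a 3′ IVT method and hybridised to Affymetrix MOE_430_2 arrays. The authors condensed each scan to 1 MAS5 signal intensity per probe set, on a linear scale. The deposited values are whole numbers, and no source used here states which MAS5 version. Since 3′ labelling reads transcript ends, degraded RNA and probe position can change a signal.

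Of 45037 probe sets left after 64 controls, 34945 carried 1 gene symbol, 932 several and 9160 none. Only the first kind was used, and 34741 were matched to the RefSeq gene table. Signals under 40 were raised to 40, and log2 ratios were taken per gene with Python 3.11.15, numpy 2.4.6 and pandas 2.3.3. The calculation was tested on simulated data. Figures were drawn with matplotlib 3.10.9. With 1 array for each condition there was no test, and precision is limited by the number of arrays.

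The comparison, gene lists and named genes were chosen with earlier results of these data known. Named by rule were the 15 highest and 15 lowest ratios of genes that reached a signal of 200 and had agreeing probe sets, sorting antigens and cell type markers, up to 10 members of a list with the largest and 5 with the smallest ratio, members against their list and genes the study names. Further members were named for their known role after their values were seen. Alternatives changed the scaling, the floor, the choice of probe set and the fold.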

Additional observations from a re-analysis of the deposited data

How the results depend on the processing

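The 2606 genes at least 2-fold higher and 1917 lower in fresh MuSC became 1376 and 947 at 3-fold. With the floor at 183, the 75th percentile of the signals, 1260 were higher and 1298 lower. Over the other alternatives the counts ranged from 1962 to 3541 higher and from 1424 to 2389 lower. Medians of 50 gene lists were recomputed, 348 in all, and a change of sign was counted only where the median had been past 2-fold. There 0 changed sign. Other medians near 0 did, such as ribosome biogenesis (0.025, and -0.14 after centering) and Hox and limb genes (0.20, and -0.077 after quantile normalization). Of the 348, 9 fell outside the 95% interval of the first median, taken over the genes of its list. Reversed values of single genes were those of Lama5 after quantile normalization (-0.62) and with the probe set chosen on the fresh and −OSM arrays (-0.074), and those of Psma1 (0.29) and Psmd7 (0.38) as the median over their probe sets. The cause was not tested. No paired analysis was possible because each condition had 1 array and the labels give no replicate numbers. Without replicates the spread between samples is unknown, and genes under the floor have no order.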
